A study of Rattus norvegicus with 10 samples.

Results

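The 9 genes described here encode scaffold proteins of the striated muscle sarcomere and were taken by gene symbol from the deposited table: Actn2, Myoz2, Ldb3 and Tcap of the Z-disc, Ttn, Myom1 and Myom2 of the M-band, and the leiomodins Lmod2 and Lmod3. All 9 were found among the 18025 genes listed, and 9 of 9 passed the filter on low values, a mean of at least 0.1 FPKM, which 14542 of the 18025 genes passed. FPKM is the number of fragments scaled by gene length and by library size, so the levels of different genes can be set side by side.

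The libraries came from hearts of wild-type Sprague-Dawley rat fetuses at embryonic day 19.5 (E19.5), with 5 libraries in the control (CON) group and 5 in the hyperglycemia (HG) group. Dams were 3 months old, HG dams were injected intraperitoneally with streptozotocin (STZ), a toxin of pancreatic beta cells, in citric acid buffer on 3 consecutive days, and CON dams received the buffer alone. Diabetes in STZ-treated dams was checked 7 days later as a non-fasting blood glucose above 16 mM. The labels name heart tissue, while a figure legend of the study speaks of isolated fetal cardiomyocytes for the same comparison, and which material was sequenced cannot be settled from them. The sources also differ on whether dams were grouped before or after mating, they do not give the dam, litter or sex of each fetus, and some libraries may share a dam, so each p value measures only the spread between these libraries. Genes of the Y chromosome averaged 9.51 to 11.1 FPKM in CON replicates 1 and 4 and HG replicates 1 and 3. In the other libraries they averaged at most 0.24 FPKM.

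Sarcomeres repeat along the myofibril between Z-discs. At the Z-disc, alpha-actinin (Actn2) cross-links actin filaments of opposite polarity, Ldb3 (cypher, a PDZ and LIM domain protein) and Myoz2 (calsarcin, which also binds calcineurin) bind alpha-actinin, and Tcap (telethonin) joins the ends of titin molecules. Titin (Ttn) runs as a molecular spring from the Z-disc to the M-band, where myomesins (Myom1, Myom2) cross-link it to myosin filaments. Leiomodins bind the pointed ends of thin filaments and lengthen them, Lmod2 being the main leiomodin of heart and Lmod3 being known chiefly from skeletal muscle. Loss of several of these proteins causes cardiomyopathy or nemaline myopathy.

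Depth was alike in both groups, with 17639895 to 18240006 reads on genes in CON libraries and 16672876 to 19109844 in HG libraries, as recovered from the steps in the FPKM values. Libraries of the same group correlated at 0.988 to 0.992 across genes and libraries of different groups at 0.977 to 0.984. The defining markers of cardiomyocytes were abundant throughout, and their summed level was 21352 to 22644 FPKM in CON and 17747 to 20181 FPKM in HG libraries. Of the 9 markers 6 were lower in HG and 0 higher, beside 11.8% and 28.4% of all tested genes. They were Tnnt2, Actc1, Tnnc1, Myl3, Pln, Nkx2-5, Tbx20, Ryr2 and Casq2, among them sarcomere genes such as Tnnt2 and Actc1. Their log2 fold changes ran from -0.62 for Ryr2 to 0.09 for Tbx20, and Actc1, Nkx2-5 and Tbx20 were not called. Setting libraries to their mean thus compares a gene with these 9 markers and does not measure cardiomyocyte content. The difference in mean log2 level over these 9 markers was -0.25 (two-sided exact permutation test, p = 0.00794, the smallest that 5 against 5 libraries allow). Smooth muscle markers summed to 651.0 to 778.4 FPKM in CON and 888.4 to 1121 FPKM in HG. Of these 4, Acta2, Tagln and Cnn1 were higher and Myh11 was not called (limma adjusted p = 0.183). Acta2 alone averaged 538.2 FPKM in CON and 672.9 FPKM in HG libraries, most of the sum. Macrophage markers summed to 15.8 to 19.8 and 20.8 to 25.7 FPKM, with 3 of 4 higher (Cd68, Adgre1 and C1qa) and Csf1r not called. Skeletal muscle markers, which matter for Lmod3 and Myom2, summed to 5.98 to 8.96 FPKM in CON and 8.72 to 14.2 FPKM in HG, and Myf5 and Pax7 were not listed. The part of these markers in the results below was not tested, and in a bulk sample such as the labelled heart tissue fewer cardiomyocytes and less mRNA in each cardiomyocyte cannot be told apart. Of all genes tested, 70.7% of the calls were higher in HG with FPKM as deposited, 47.4% after median-of-ratios scaling, 53.0% after quantile normalization and 94.0% after each library was set to the same mean level of the cardiomyocyte markers, and the median over all genes of the log2 fold change was 0.09, 0.01, 0.02 and 0.33 in turn.

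Of the 9 genes, 7 fell in HG hearts at an adjusted p under 0.05 (limma across 14542 genes, Benjamini-Hochberg), where 11.8% of all tested genes were called lower, and 0 of 9 rose, where 28.4% of all were called higher, although the estimate for 1 of the 7, Myom1, turned positive once libraries were set to the same cardiomyocyte marker level. The 7 were Actn2, Myoz2, Ldb3, Ttn, Myom1, Myom2 and Lmod3, and in each of them every HG library lay under every CON library, as in 8.12% of all genes (27.4% of all genes had groups that did not overlap in either direction). With the libraries set to the same cardiomyocyte marker level, 4 stayed called lower (Myom2, Lmod3, Myoz2 and Ldb3), where 4.14% of all genes were called lower, and Ttn (-0.20, limma adjusted p = 0.0502), Actn2 (-0.06, adjusted p = 0.237) and Myom1 (0.07, adjusted p = 0.0809) did not pass the threshold. Myom2 and Lmod3 also passed a log2 fold change of -1, as 1.07% of all tested genes did (1.94% of them passed an absolute change of 1 in either direction), and with a pseudocount of 1 neither did (Myom2 -0.94, Lmod3 -0.98). Tcap and Lmod2 did not pass the test. Over the 9 genes the log2 fold changes had a median of -0.40, and over all genes tested one of 0.09. The 9 genes were chosen with earlier results of these data known, so these shares describe them and are no independent test.

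**Figure D1:**
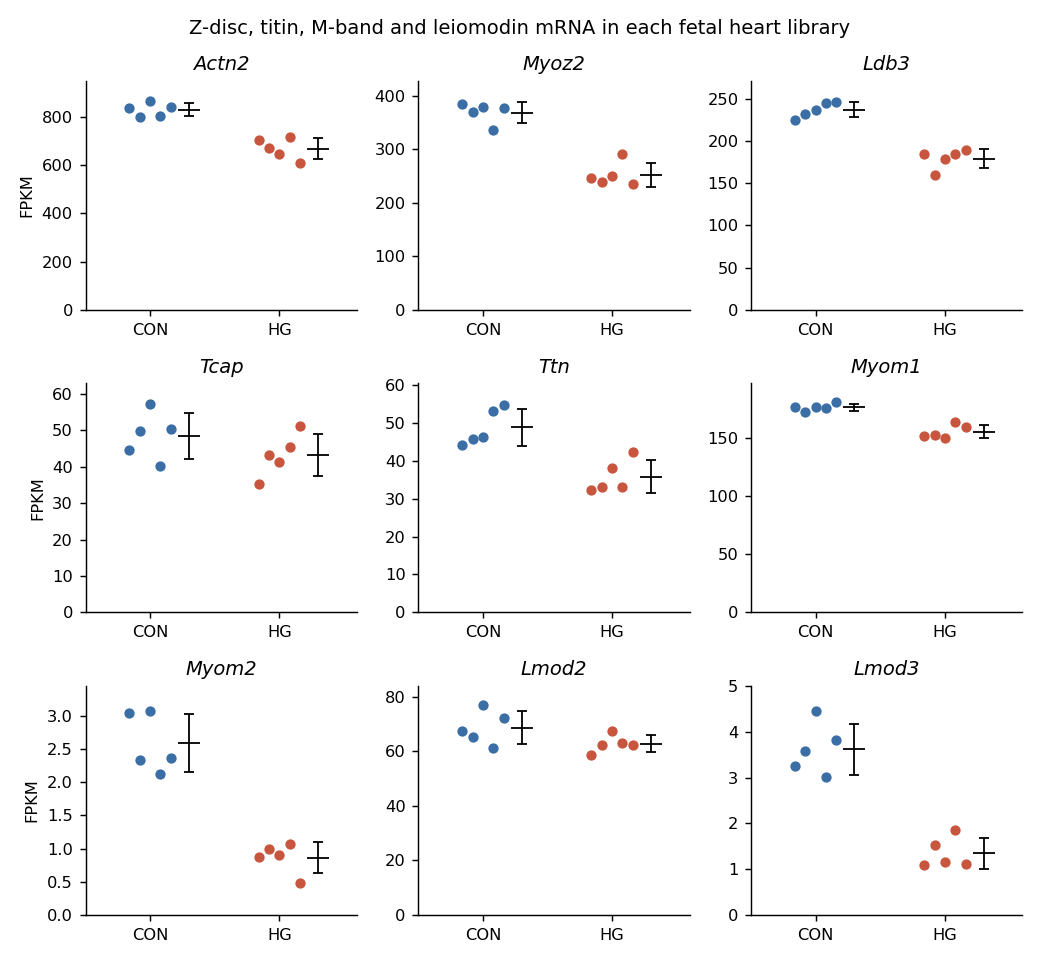
Level of each of the 9 genes in every library (FPKM, linear axes from 0), with blue points for the 5 CON and red points for the 5 HG libraries, placed from left to right by replicate number. Horizontal marks with bars give the group mean and SD, and the groups overlap in the panels of Tcap and Lmod2.

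In CON hearts the levels spanned from 829.9 FPKM for Actn2 to 2.59 FPKM for Myom2, in the order Actn2, Myoz2, Ldb3, Myom1, Lmod2, Ttn, Tcap, Lmod3 and Myom2. Ttn and Tcap overlapped in both groups and cannot be ordered, Ldb3 and Myom1 overlapped in HG libraries alone, and Lmod3 and Myom2 overlapped in CON libraries alone. Every other pair of neighbours was separate in each group.

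Actn2 (NCBI Gene 291245) was the most abundant of the Z-disc genes. Its level was 838.4, 801.5, 865.8, 802.3 and 841.6 FPKM in CON libraries and 704.2, 669.5, 646.5, 715.7 and 608.8 FPKM in HG libraries. The highest HG library remained under the lowest CON library. The means were 829.9 ± 27.7 FPKM (SD, n = 5) and 669.0 ± 43.5 FPKM (SD, n = 5), a log2 fold change of -0.31 (SE 0.0476, limma adjusted p = 0.000318), or 19.4% lower. Against the cardiomyocyte marker mean of the same library the log2 difference was -0.06, a difference that did not pass the test (exact permutation p = 0.135). Against Tnnt2 and Actc1 alone, the troponin T and actin of heart muscle, it was -0.09 (exact permutation p = 0.00794).

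Myoz2 (NCBI Gene 295426) fell further than Actn2. It stood at 383.8, 368.9, 378.6, 335.4 and 376.5 FPKM in CON and at 247.1, 238.3, 250.5, 290.8 and 235.2 FPKM in HG libraries. Replicate 4 held the lowest CON and the highest HG value, and the groups were still separate. The mean went from 368.7 ± 19.3 to 252.4 ± 22.4 FPKM (SD, n = 5 each), a log2 fold change of -0.55 (SE 0.0584, limma adjusted p = 2.66e-05). Its ratio to Actn2 within a library, which a single factor per library cannot change, was 0.444 ± 0.0172 in CON and 0.377 ± 0.0234 in HG hearts (SD, n = 5 each), without overlap (log2 difference -0.24, exact permutation p = 0.00794, 0.0159 adjusted over the 6 ratios compared).

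Ldb3 (NCBI Gene 498587) was 224.5, 232.0, 236.5, 244.8 and 246.4 FPKM in CON and 184.8, 159.7, 178.1, 184.3 and 188.8 FPKM in HG libraries. All HG values were under all CON values. The means were 236.9 ± 9.09 and 179.1 ± 11.5 FPKM (SD, n = 5 each), a log2 fold change of -0.40 (SE 0.0474, limma adjusted p = 5.44e-05). Relative to Actn2 the difference was not larger than the spread, at a ratio of 0.286 ± 0.0151 in CON and 0.269 ± 0.0266 in HG (exact permutation p = 0.246 before and after adjustment). Without HG replicate 5, which held the highest HG ratio, the log2 difference of this ratio moved from -0.09 to -0.14 (exact permutation p = 0.0397). Relative to the cardiomyocyte marker mean Ldb3 was lower by a log2 difference of -0.15 (exact permutation p = 0.00794).

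Tcap (NCBI Gene 688173) was the Z-disc gene for which no difference passed the test. Its values were 44.7, 49.7, 57.1, 40.1 and 50.3 FPKM in CON and 35.2, 43.2, 41.1, 45.4 and 51.2 FPKM in HG libraries. HG replicate 5 was above 4 of the 5 CON libraries, so the groups overlapped. The means of 48.4 ± 6.39 and 43.2 ± 5.85 FPKM (SD, n = 5 each) gave a log2 fold change of -0.16, with a 95% interval from -0.39 to 0.06 (limma adjusted p = 0.233). The interval includes falls as large as that of Actn2 and includes no change. Per Ttn, the Tcap ratio was 1.00 ± 0.181 in CON and 1.21 ± 0.129 in HG (exact permutation p = 0.0714, 0.0857 adjusted), and without CON replicate 3 the log2 difference of this ratio moved from 0.29 to 0.37 (p = 0.0159).

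Ttn (NCBI Gene 84015) was 44.0, 45.8, 46.1, 53.1 and 54.7 FPKM in CON and 32.4, 33.0, 38.1, 33.1 and 42.4 FPKM in HG libraries. CON replicates 4 and 5 were the highest, and HG replicates 3 and 5 came closest to the CON range without entering it. The means were 48.8 ± 4.81 and 35.8 ± 4.32 FPKM (SD, n = 5 each), a log2 fold change of -0.45 (SE 0.0834, limma adjusted p = 0.00122). A gene-level value sums the cardiac isoforms of titin and cannot show a shift between them. Set against the cardiomyocyte marker mean the log2 difference was -0.20 (exact permutation p = 0.0794), and it was -0.26 without HG replicate 5 (p = 0.0397).

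Ttn had by far the longest gene model of the 9, 106418 bases as implied by the FPKM steps, and its 62271 to 102967 reads made it the most deeply counted of them. Within groups its level moved with that of other long genes. The median log2 deviation of 626 other genes over 10 kb, each with a mean of at least 1 FPKM, ran from -0.12 to 0.002 in CON and from -0.02 to 0.15 in HG libraries, and after group means were subtracted it correlated with Ttn at r = 0.94 over the 10 libraries, as a description. Between groups the long genes were 0.09 higher in HG (exact permutation p = 0.0397), close to the median of 0.09 over all tested genes. Long genes relative to genes up to 1.5 kb differed by 0.06 (exact permutation p = 0.222). Ttn relative to the long genes differed by -0.54 without overlap (exact permutation p = 0.00794), a reference chosen after the values were seen.

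Myom1 (NCBI Gene 316740) was among the least variable of the 9, at 176.7, 172.2, 176.8, 175.5 and 180.7 FPKM in CON and 152.0, 152.7, 149.7, 163.3 and 159.1 FPKM in HG libraries. The groups did not overlap. The means were 176.4 ± 3.03 and 155.4 ± 5.65 FPKM (SD, n = 5 each), a log2 fold change of -0.18 (SE 0.0327, limma adjusted p = 0.000919), or 11.9% lower, whereas against the cardiomyocyte marker mean of the same library it was higher in HG by 0.07 (exact permutation p = 0.0159). Against Tnnt2 and Actc1 alone the log2 difference was 0.04 (exact permutation p = 0.286).

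Myom2 (NCBI Gene 306616) had a far lower level and a far larger difference than Myom1, its close relative. It stood at 3.04, 2.34, 3.07, 2.12 and 2.37 FPKM in CON and at 0.881, 0.989, 0.904, 1.07 and 0.482 FPKM in HG libraries. All HG libraries were well under all CON libraries, and HG replicate 5 was the lowest. These values rest on 202 to 288 reads per CON library and on 42 to 99 reads per HG library. The means of 2.59 ± 0.437 and 0.866 ± 0.227 FPKM (SD, n = 5 each) gave a log2 fold change of -1.50 (SE 0.183, limma adjusted p = 7.00e-05), and the HG mean was 66.6% lower. Fold changes are on the log2(FPKM + 0.1) scale, which understates changes of genes at such levels, and with a pseudocount of 1 the value was -0.94.

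The ratio of Myom2 to Myom1 was 0.0147 ± 0.00245 in CON and 0.00558 ± 0.00146 in HG hearts (SD, n = 5 each). All 5 HG ratios, 0.00303 to 0.00657, were under all 5 CON ratios, 0.0121 to 0.0174 (log2 difference -1.43, exact permutation p = 0.00794, 0.0159 adjusted). In both groups Myom1 was by far the more abundant of the pair.

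**Figure D2:**
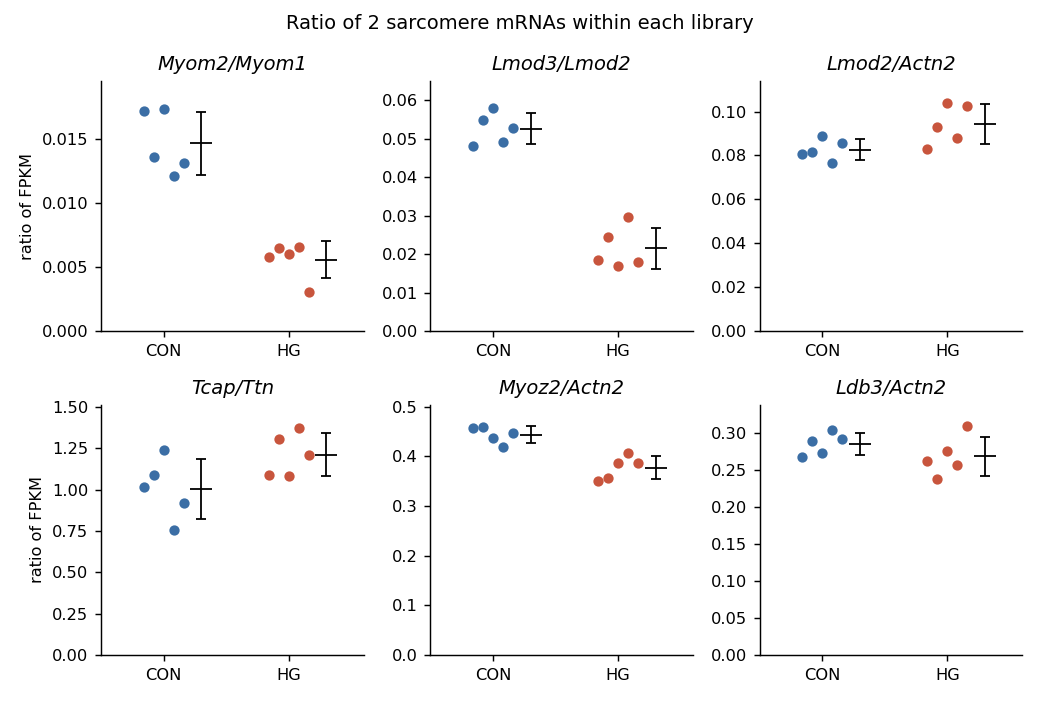
Ratio of the FPKM values of 2 of the genes within each library (linear axes from 0), for 5 CON libraries in blue and 5 HG libraries in red, with group mean and SD. The groups are separate for Myom2/Myom1, Lmod3/Lmod2 and Myoz2/Actn2 and overlap for Lmod2/Actn2, Tcap/Ttn and Ldb3/Actn2.

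Of the leiomodins, Lmod2 was the more abundant and Lmod3 the one that fell. Lmod2 (NCBI Gene 296935) was 67.5, 65.3, 76.8, 61.4 and 72.2 FPKM in CON and 58.5, 62.3, 67.3, 62.9 and 62.4 FPKM in HG libraries, and the groups overlapped. The means were 68.6 ± 6.01 and 62.7 ± 3.13 FPKM (SD, n = 5 each), a log2 fold change of -0.13 with an unadjusted 95% interval from -0.25 to -0.001 (limma adjusted p = 0.101). This call depended on the setting: the log2 fold change was -0.22 after median-of-ratios scaling (adjusted p = 0.0132) and -0.17 without CON replicate 4 (adjusted p = 0.0321), both past the threshold, and 0.12 when libraries were set to the cardiomyocyte markers (adjusted p = 0.0857), in a range of 0.0132 to 0.233 over 23 alternatives.

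Lmod3 (NCBI Gene 500267) was 3.25, 3.58, 4.46, 3.02 and 3.81 FPKM in CON and 1.09, 1.53, 1.15, 1.86 and 1.11 FPKM in HG libraries. The lowest CON library was well above the highest HG library. The values rest on 127 to 182 reads in CON and 43 to 76 reads in HG libraries. The mean went from 3.62 ± 0.558 to 1.35 ± 0.339 FPKM (SD, n = 5 each), a log2 fold change of -1.38 (SE 0.153, limma adjusted p = 3.67e-05), or 62.8% lower. Within a library, Lmod3 was 0.0526 ± 0.00408 of Lmod2 in CON and 0.0215 ± 0.00538 of it in HG (SD, n = 5 each), without overlap (log2 difference -1.32, exact permutation p = 0.00794, 0.0159 adjusted). The skeletal muscle markers, among which Myh3 was the most abundant at a mean of 3.73 FPKM, held 0 of 5 tested genes called lower in HG and 3 called higher (Myog, Tnni2 and Mylpf). Over all tested genes 11.8% were called lower and 28.4% higher. The part of skeletal muscle markers in the level of Lmod3 was not tested.

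Lmod2 relative to Actn2 was 0.0826 ± 0.00476 in CON and 0.0941 ± 0.00912 in HG, with overlapping groups (log2 difference 0.19, exact permutation p = 0.0397, 0.0595 adjusted over the 6 ratios). The unadjusted p was 0.0556 to 0.0794 when any of 7 libraries was left out, namely CON replicate 1, 2, 4 or 5 or HG replicate 2, 3 or 5.

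**Figure D3:**
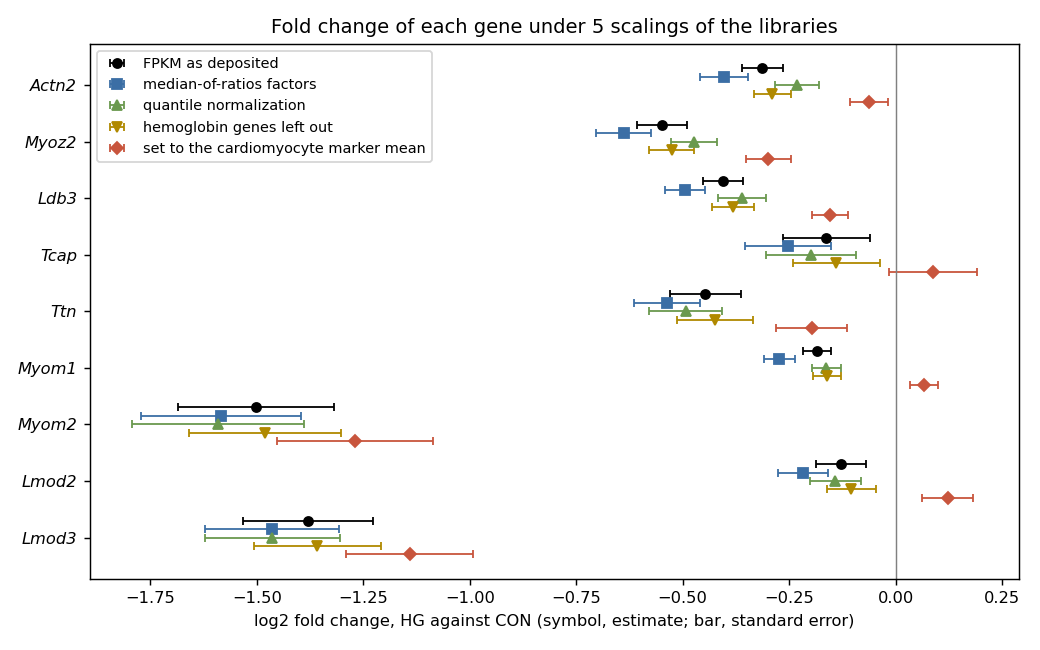
Log2 fold change of each gene, HG against CON, under 5 scalings of the same libraries, with the standard error as bars and a vertical line at no change. Myom2 and Lmod3 lie at -1.14 or lower under every scaling drawn, and the estimates of Tcap, Myom1 and Lmod2 change sign, to 0.09, 0.07 and 0.12, where libraries were set to the cardiomyocyte marker mean.

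Promoter windows of RefSeq (build GRCr8, 250 bases before and 50 after an annotated start) were at hand for 7 of the 9 genes, 8 windows in all, with 2 for Lmod3. Myom2 and Tcap had no entry. The windows were searched on both strands for motifs of muscle regulators: the CArG box of SRF, the MEF2 box, the MCAT element CATTCC bound by TEAD factors, and the E-box CANNTG bound by MyoD-family and other factors. Of 33469 windows of the same length, 1.64% held a CArG box, 3.29% a MEF2 box, 14.2% an MCAT element and 72.1% an E-box. The windows of Myoz2, Ttn and Ldb3 are shown because they held a box for MEF2 or SRF, the rarer motifs of the 4, with the CArG, MEF2 and MCAT matches in capitals, and all lie on the minus strand at chr2:213852729-213853028, chr3:82332061-82332360 and chr16:9924630-9924929.
Myoz2: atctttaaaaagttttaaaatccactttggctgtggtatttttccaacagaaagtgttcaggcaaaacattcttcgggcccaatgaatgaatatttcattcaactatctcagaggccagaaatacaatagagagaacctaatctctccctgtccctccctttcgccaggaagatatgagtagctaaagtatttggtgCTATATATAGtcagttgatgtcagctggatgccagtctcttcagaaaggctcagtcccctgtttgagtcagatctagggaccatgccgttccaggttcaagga
Ttn: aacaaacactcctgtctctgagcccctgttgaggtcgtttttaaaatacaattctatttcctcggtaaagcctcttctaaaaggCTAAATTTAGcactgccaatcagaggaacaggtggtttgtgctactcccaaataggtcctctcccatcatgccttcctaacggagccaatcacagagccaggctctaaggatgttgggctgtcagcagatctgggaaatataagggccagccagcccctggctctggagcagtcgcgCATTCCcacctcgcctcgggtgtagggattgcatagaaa
Ldb3: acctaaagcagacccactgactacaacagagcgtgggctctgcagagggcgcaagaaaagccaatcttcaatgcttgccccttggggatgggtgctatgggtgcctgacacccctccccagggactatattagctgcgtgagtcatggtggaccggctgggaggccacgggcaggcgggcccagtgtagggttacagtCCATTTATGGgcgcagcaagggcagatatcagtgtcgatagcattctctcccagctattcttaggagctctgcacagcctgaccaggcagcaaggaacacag

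Myoz2 held the MEF2 box CTATATATAG, at bases 198 to 207 of the window, 53 bases before the start, and 2 E-boxes. Ttn held a MEF2 box, CTAAATTTAG, farther upstream at bases 85 to 94, an MCAT element just after the start at bases 262 to 267, and 1 E-box. Ldb3 held the CArG box CCATTTATGG at bases 199 to 208 and no E-box, and its window belongs to a start inside the gene's annotated span. These 3 genes fell by 0.55, 0.45 and 0.40 on the log2 scale, and a match in a window describes letters, not a bound site.

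The 2 windows of Lmod3, the leiomodin with the larger difference, are shown for contrast, with E-boxes in capitals, both on the minus strand, at chr4:131415362-131415661 for the outer start and chr4:131414889-131415188 for the inner start.
Lmod3 outer start: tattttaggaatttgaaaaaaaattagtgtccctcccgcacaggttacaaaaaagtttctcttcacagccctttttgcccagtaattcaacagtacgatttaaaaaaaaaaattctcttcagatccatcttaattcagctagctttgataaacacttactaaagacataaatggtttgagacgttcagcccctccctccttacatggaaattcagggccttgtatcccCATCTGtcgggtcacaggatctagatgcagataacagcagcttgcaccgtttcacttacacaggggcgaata
Lmod3 inner start: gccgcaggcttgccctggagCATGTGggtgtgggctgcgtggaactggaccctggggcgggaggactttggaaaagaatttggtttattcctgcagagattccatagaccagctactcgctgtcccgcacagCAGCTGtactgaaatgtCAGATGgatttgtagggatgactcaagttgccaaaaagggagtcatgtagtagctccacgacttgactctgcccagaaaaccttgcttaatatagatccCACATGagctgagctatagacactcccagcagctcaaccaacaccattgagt

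The outer window of Lmod3 held 1 E-box and the inner window 4, and no letters of the other 3 motifs were found in either. Lmod2, Myom1 and Actn2 held 2 E-boxes each and none of the other motifs, and both E-boxes of Actn2 read CACGTG. Absence of a match says only that these letters are not in these windows. The factors that bind the MCAT element and the E-box were not followed. Of the 7 SRF and MEF2 regulators that were followed (Srf, Myocd, Mrtfa, Mrtfb, Mef2a, Mef2c and Mef2d), 1 was called, where 40.1% of all tested genes were called in either direction. It was Mef2d, which was lower by -0.14 (limma adjusted p = 0.0272) with FPKM as deposited and had a positive estimate of 0.11 with the cardiomyocyte marker scaling. No regulator was called with the replicate number as a block, nor without CON replicate 3, 4 or 5 or HG replicate 1 or 3. Srf itself measured 70.8 ± 4.28 and 74.8 ± 8.85 FPKM and Mef2a 48.8 ± 2.04 and 48.4 ± 1.98 FPKM in the CON and HG groups (SD, n = 5 each), neither past the test with FPKM as deposited. With the marker scaling 6 of the 7 regulators were called, 0 of them lower, where 69.5% of all tested genes were called. There the estimates were 0.32 for Srf and 0.24 for Mef2a.

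Beside the 9 genes, 71 other genes of the sarcomere and its regulators were followed in 6 lists, of which 66 were tested. The lists were also chosen with earlier results of these data known, so the shares below are a description. Their log2 fold changes had a median of -0.11. At an adjusted p under 0.05, 30 of the 66 were lower in HG (11.8% of all genes) and 10 were higher (28.4% of all genes). With the cardiomyocyte marker scaling 11 of the 66 were called lower, where 4.14% of all genes were, and 8 of the 30 had a positive estimate. None of the 30 changed sign under median-of-ratios or quantile scaling, and 8 of the 10 higher genes were no longer called after median-of-ratios scaling, all 10 with a positive estimate.

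Of 16 tested Z-disc partners, 9 were lower and 1 was higher, beside 11.8% and 28.4% of all tested genes, with a median of -0.25. Of the 9, 1 had a positive estimate with the marker scaling. Under that scaling 6 of the 16 were called lower. Cryab, the small heat shock protein that protects desmin and titin, went from 1088 ± 54.5 to 654.1 ± 49.7 FPKM (SD, n = 5 each), a log2 fold change of -0.74 (limma adjusted p = 2.17e-06). Bag3, its partner in clearing damaged Z-disc proteins, went from 50.01 ± 4.19 to 28.9 ± 1.82 FPKM (-0.79, adjusted p = 2.88e-06). Mypn, myopalladin, which binds alpha-actinin and nebulin, differed by -0.67 (adjusted p = 7.87e-05). All 3 differed by more than Actn2, Ldb3 and Myoz2 in estimate, a comparison that was not tested. Capza1, a subunit of the actin-capping protein CapZ, was the member that rose, by 0.14 (adjusted p = 0.0181), and was not called after median-of-ratios scaling (adjusted p = 0.416).

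Of 12 M-band and titin-bound genes, 6 were lower and 1 was higher, beside 11.8% and 28.4% of all tested genes, with a median of -0.16. The lower ones had no change of sign under any of the 3 scalings. Fhl1, a LIM protein at the titin spring, differed by -0.39 (limma adjusted p = 0.000122). Trim63 (MuRF1), a ubiquitin ligase at the M-band, differed by -0.32 (adjusted p = 0.000153), and Mybpc3, cardiac myosin-binding protein C, by -0.35 (adjusted p = 0.000157). Sqstm1, an autophagy receptor, was higher by 0.15 (adjusted p = 0.0273), a call lost after median-of-ratios scaling (adjusted p = 0.381). Under the marker scaling 2 genes of this list were called lower, and the estimates were -0.14 for Fhl1, -0.07 for Trim63 and -0.10 for Mybpc3.

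Of 13 genes of thin filament ends and actin turnover, 6 were lower and 3 were higher, beside 11.8% and 28.4% of all tested genes. Of the 6 lower genes, 2 had a positive estimate under the marker scaling. Among the lower ones were the formin Fhod3, which builds cardiac thin filaments, at -0.33 (limma adjusted p = 1.22e-05), Tmod1, the tropomodulin that caps the pointed ends on which leiomodins act, at -0.27 (adjusted p = 0.000247), and the heat shock protein Hspb7 at -0.37 (adjusted p = 0.000317). The higher ones were the formins Fhod1 at 0.41 (adjusted p = 0.00265) and Daam1 at 0.20 (adjusted p = 0.00654) and the tropomodulin Tmod2 at 0.33 (adjusted p = 0.0479). Of these, Daam1 and Tmod2 were not called after median-of-ratios scaling (adjusted p = 0.083 and 0.126). Under the marker scaling 1 gene of this list was called lower, and the estimates were -0.08 for Fhod3, -0.02 for Tmod1 and -0.12 for Hspb7.

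Of the 8 assembly factors 6 were lower and 1 was higher, beside 11.8% and 28.4% of all tested genes. Of the 6 lower genes, 4 had a positive estimate under the marker scaling. Xirp2, an actin-binding repeat protein of the intercalated disc and Z-disc, had the largest difference of the 66 listed genes, from 1.27 ± 0.388 to 0.318 ± 0.0396 FPKM (SD, n = 5 each), a log2 fold change of -1.66 (limma adjusted p = 7.19e-05). Nrap, a scaffold of premyofibrils, went from 47.5 ± 3.46 to 29.1 ± 2.52 FPKM (-0.71, adjusted p = 9.97e-06). The methyltransferase Smyd1, a myosin chaperone, differed by -0.24 (adjusted p = 0.00077), and by 0.009 under the marker scaling, in which 2 genes of this list were called lower. Mylk3, the cardiac myosin light chain kinase, was higher by 0.15 (adjusted p = 0.0232), a call lost after median-of-ratios scaling (adjusted p = 0.385).

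Of 10 tested family relatives of the 9 genes, 2 were lower and 4 were higher, beside 11.8% and 28.4% of all tested genes. Their log2 fold changes had a median of -0.06. After median-of-ratios scaling 3 of the 4 higher genes were not called, among them Actn4 (adjusted p = 0.279). Actn1, the non-muscle relative of Actn2, was higher by 0.32 (limma adjusted p = 0.00159), and Pdlim7, a PDZ and LIM protein like Ldb3, by 0.17 (adjusted p = 0.0129, and 0.253 after median-of-ratios scaling). Myom3, the third myomesin, went from 0.602 ± 0.128 to 0.914 ± 0.211 FPKM (SD, n = 5 each), higher by 0.53 (adjusted p = 0.0310, and 0.0725 after median-of-ratios scaling). Pdlim5, another PDZ and LIM protein, was lower by -0.35 (adjusted p = 0.000266), and Lmod1, the smooth muscle leiomodin, by -0.61 (adjusted p = 0.0313), with group values that overlapped. Both calls were lost under the marker scaling, in which 0 genes of this list were called lower and Pdlim5 was at -0.10 and Lmod1 at -0.38. In CON hearts the mean of Myom3 was under that of Myom2, while in HG hearts the 2 means, 0.914 and 0.866 FPKM, were close.

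**Figure D4:**
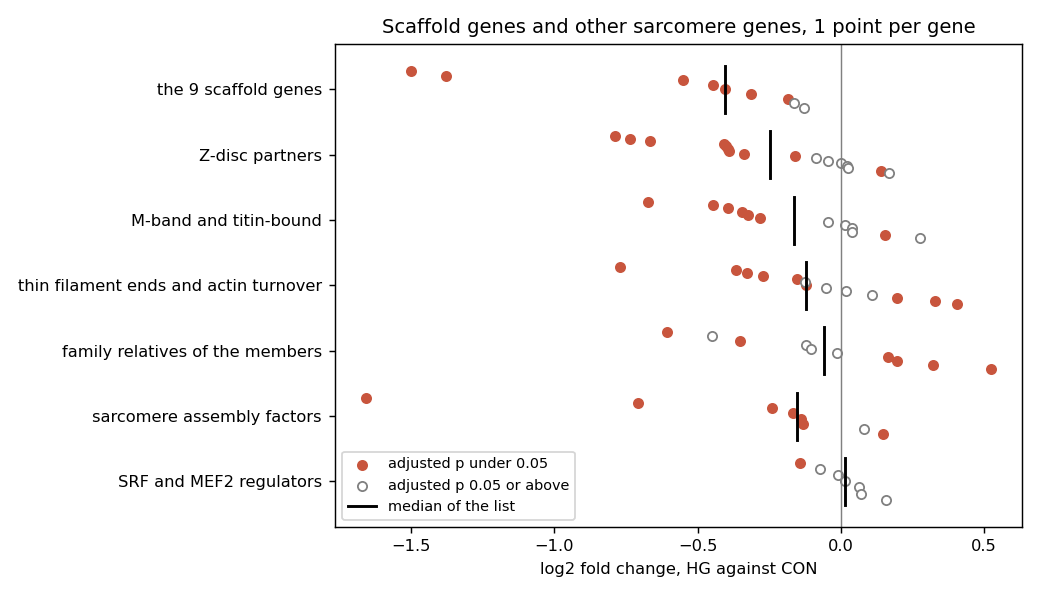
Log2 fold change with FPKM as deposited, HG against CON, for the 9 scaffold genes and the 66 tested genes of 6 lists, 1 point per gene and a bar at the median of each list, filled where the adjusted p was under 0.05. Points lie left of 0 for 30 called listed genes and right of 0 for 10, and after scaling to the cardiomyocyte markers 11 listed genes were called lower and 8 of the 30 had a positive estimate.

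The gene ontology terms in the deposited table largely restate the choice of the 9 genes and serve here to name their annotated neighbours. Sarcomere organization was attached to 7 of the 9, muscle contraction to 6, and Z disc and M band to 5 each, the leiomodins being placed at the M band. Among the 34 other tested genes with the term sarcomere organization, 15 were lower and 7 higher (median log2 value -0.12, with 11.8% lower and 28.4% higher over all tested genes), and 7 of the 15 had a positive estimate under the marker scaling. Among the 39 others with muscle contraction, 12 were lower, 2 of them positive under the marker scaling, and 10 were higher, with a median of -0.03, beside the same shares over all genes. These terms were looked up after the values of the 9 genes were known.

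Across all 10 libraries the 36 pairs of the 9 genes correlated at r = 0.33 to 0.97 (median 0.74), values that include the difference between the groups. After each group's mean was subtracted the median was 0.23 and 25 of 36 pairs were positive. The highest of these was Myom2 with Actn2 at 0.82 and the lowest Ttn with Myom2 at -0.80. Ttn also ran against Actn2 at -0.69 and with Ldb3 at 0.57, while Myoz2 ran with Actn2 and Lmod3 at 0.68 each and Lmod2 with Tcap at 0.67. All these pairs share the same 10 libraries and their depth, so they are given as a description. Within groups Ttn also followed the other genes over 10 kb (r = 0.94). HG replicate 5 held the highest HG value of Ttn and the lowest values of Myom2 and Actn2. The part of this in the pairs with Ttn was not tested.

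The tested gene most like each of the 9 over the 10 libraries was Dmd (dystrophin) for Ttn at r = 0.98, Tnni3 (cardiac troponin I) for Myom1 at 0.98, and Gpc1 (glypican) for Actn2 at 0.98. It was Ccng1 (cyclin G) for Myoz2, Slc6a17 (an amino acid transporter) for Ldb3, Pcca (a mitochondrial carboxylase subunit) for Lmod3 and Galnt16 (a glycosyltransferase) for Myom2, each at 0.99. For the 2 genes that did not pass the test the best values were lower, Ranbp3l for Tcap at 0.90 and Zkscan7 for Lmod2 at 0.89. All these values include the difference between the groups. With each group's mean subtracted the best values were 0.95 for Tcap and 0.93 for Lmod2, beside 0.93 for Myom1 and 0.95 for Myoz2. With group means subtracted the nearest were Klc1 for Ttn, Pacsin1 for Myom1, Plp2 for Myom2, Gulp1 for Lmod2, Ccpg1os for Lmod3, Cd53 for Tcap, Evi5 for Ldb3, Coq10b for Myoz2 and Slc25a5 for Actn2, at r = 0.93 to 0.98. No gene was nearest to the same member by both measures, and each is the best of the 14542 tested genes over 10 libraries.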

How the data were processed

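RNA sequencing of 10 fetal rat heart libraries was analysed, 5 CON and 5 HG, grouped by their labels. The authors deposited 1 table of FPKM values with a column per library, from TRIzol RNA and stranded poly(A) libraries. The submitters' processing notes name fastp, HISAT2, HTSeq, R 3.2.0 and the build mRatBN7.2. The annotation and strand setting are not given in the sources used here, so overlapping non-coding genes at Ttn, Myom2 and Lmod2 cannot be told apart from them. The study's methods speak of RNA pooled from the samples, whereas the columns differ. The table's gene ontology column was read, and 0 columns of per-library values were left unused.

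A mean FPKM of 0.1 or more was required (14542 of 18025 genes, 3483 below), and these genes were tested with limma 3.58.1 (R 4.3.3, trend on expression) on log2(FPKM + 0.1), without covariates. P values were adjusted over all tested genes by Benjamini-Hochberg, and 40.1% were called at an adjusted p under 0.05. Of all tested genes 1.94% also passed an absolute log2 fold change of 1. Single values and ratios within a library (no pseudocount) were compared by two-sided exact permutation tests, which cannot go below p = 0.00794 with 5 against 5. Whole reads were recovered from the FPKM steps for 100% of genes, each value within 0.02 of a whole read, and gave the depths. As an alternative, limma-voom on these reads called 5961 genes. The fit and the recovery of reads were tested on simulated data. Python 3.11.15, numpy 2.4.6, pandas 2.3.3 and matplotlib 3.10.9 were used.

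The 9 genes, the 6 lists and the 10 marker lists were chosen with earlier results of these data known. All 9 genes are named. In each list, up to 3 lower and 3 higher genes with the smallest adjusted p are named, and for each of the 9 the gene with the highest correlation. Srf, Mef2a and the marker genes were named after their values were seen. The remaining marker sums were, in CON and HG libraries, fibroblast 1690 to 1954 and 1533 to 1749 FPKM, endothelial 247.6 to 270.1 and 256.5 to 279.4, epicardial 18.3 to 20.8 and 21.2 to 26.2, erythroid 57.7 to 105.9 and 38.9 to 55.4, and liver 3.12 to 73.0 and 0.852 to 2.40, and of the lung epithelium list only Sftpc was listed, at most at 0.0693 FPKM. Of 7 fibroblast markers 3 were called lower and 2 higher (Pdgfra and Tcf21). Of 4 epicardial markers 0 were called lower and 1 higher (Tbx18), while Upk3b and Msln had negative estimates. Endothelial markers held 0 of 6 lower and 2 higher, erythroid 3 of 4 lower and 0 higher, and liver 4 of 4 lower. Over all tested genes 11.8% were lower and 28.4% higher.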

Additional observations from a re-analysis of the deposited data

Results flagged for a closer look

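Of 30 sets of group values examined, 9 genes and 6 ratios in 2 groups, 2 had a library apart from the others by Dixon's criterion (critical value 0.71), where chance gives about 1 in 20. Myoz2 in HG replicate 4 was 290.8 FPKM, above the 235.2 to 250.5 FPKM of the other HG libraries, with a gap of 0.725 of the group's range. It remained under every CON library, and without it the log2 fold change of Myoz2 was -0.60. The ratio of Myom2 to Myom1 in HG replicate 5 was 0.00303, under the 0.00579 to 0.00657 of the other HG libraries, with a gap of 0.781 of the range. It rests on 42 reads of Myom2, and without that library the log2 difference of the ratio was -1.22, with no overlap of the groups.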

How the results depend on the processing

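The 7 lower calls held under 22 of 23 alternatives (7 or 8 calls, including 8 after median-of-ratios scaling and without CON replicate 4), and 4 held with libraries set to the cardiomyocyte markers. There Myom1 had a log2 fold change of 0.067 (limma adjusted p = 0.0809), Lmod2 0.12 (0.0857) and Tcap 0.088 (0.458). Over the 23 alternatives the adjusted p ran from 0.000241 to 0.0502 for Ttn, from 0.000135 to 0.0809 for Myom1, from 5.52e-05 to 0.237 for Actn2 and from 0.0736 to 0.485 for Tcap. With a pseudocount of 1, 0 genes passed a log2 fold change of -1, since Myom2 was at -0.94 and Lmod3 at -0.98, both still called.

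Leaving out each library gave 7 to 8 lower calls, 3 to 6 called family relatives (3 without CON replicate 3) and 0 to 1 called regulators (0 without CON replicate 3, 4 or 5 or HG replicate 1 or 3). Log2 ratios ran from 0.15 to 0.23 for Lmod2/Actn2, from 0.19 to 0.37 for Tcap/Ttn and from -0.14 to -0.050 for Ldb3/Actn2 (exact permutation p = 0.0397 without HG replicate 5). Against the marker mean Ttn ran from -0.26 to -0.16 and Lmod2 from 0.081 to 0.16 (exact permutation p = 0.0317 without CON replicate 3). With Tnnt2 and Actc1 alone as the reference Myom1 was at 0.038 and Actn2 at -0.091. Called regulators numbered 6 of 7 with the marker scaling, 0 of them lower, 2 with median-of-ratios and 2 with quantile scaling. Of all tested genes 69.5%, 33.2% and 33.9% were called in turn. The 2 after median-of-ratios scaling were lower, Myocd at -0.16 (limma adjusted p = 0.0295) and Mef2d at -0.23 (adjusted p = 0.00185). The cause of these changes was not tested.

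The labels do not say whether replicate numbers pair the libraries, and no pairing was seen, which does not exclude one. Deviations of same-numbered CON and HG libraries correlated at -0.126 to 0.108, with 1 of 5 pairs over 0.1, and 0 of 5 CON and 1 of 5 HG libraries correlated best with their own number. With the replicate number as a replicate block, 7 of the 9 genes were called lower, 0 regulators were called, and 5096 genes were called in all, against 5836. With the mean log2 level of Y chromosome genes as a covariate, 7 of the 9 genes were also called lower. Depth limits Myom2 and Lmod3, with 42 to 99 and 43 to 76 reads in HG libraries. Against the other genes over 10 kb, an alternative chosen after seeing the data, Ttn differed by -0.54.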
